A study of Homo sapiens with 28 samples.

Results

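Claudin transcripts were followed in LNCaP, a cultured human prostate cancer line that responds to androgen, after treatment with a synthetic androgen, a Mediator kinase inhibitor or both. The 6 genes described are CLDN1, CLDN3, CLDN4, CLDN7, CLDN8 and CLDN12, taken by gene symbol from a table of 61815 genes that holds 24 claudin rows. CLDN8 was chosen by its measured response, since it was among the genes most lowered by the inhibitors in these libraries. Its inhibitor effects are therefore given as a description without a test. The remaining 5 were selected as its family members with results of these data in view, so no count over the members is independent evidence. Of the 6, 5 passed the filter on low counts in both experiments, and CLDN1 passed in neither.

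All cells were wild-type LNCaP that had spent 72 h in charcoal-stripped serum, from which steroid hormones are depleted, so the controls too were androgen-deprived. In the first experiment cells received 0.1% DMSO as vehicle, 1 µM Senexin B, 0.1 nM R1881, or R1881 and Senexin B together for 24 h, with 3 libraries per group. In the second they received 0.1% DMSO, 500 nM SNX631, 1 nM R1881, or R1881 and SNX631 together for 72 h, with 4 libraries per group. For Senexin B the labels and the text of the study give different doses, and the labelled one is used here. R1881 is a synthetic androgen, and Senexin B and SNX631 inhibit CDK8 and CDK19, kinases that associate with Mediator, the complex bridging transcription factors and RNA polymerase II. Time, androgen dose and inhibitor all changed between the experiments and cannot be told apart. The model is a single cell line in culture, and in such bulk samples fewer cells of a type and less RNA per cell cannot be told apart.

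Claudins are tetraspan membrane proteins that polymerise into the strands of the tight junction, the seal between neighbouring epithelial cells. Each cell type carries its own mixture, and the mixture sets which ions and small molecules pass between cells. CLDN3 and CLDN4 are typical of simple epithelia and serve as receptors for a clostridial enterotoxin, CLDN7 binds the adhesion protein EPCAM, CLDN1 is needed for the barrier of the skin, CLDN8 acts with CLDN4 in the ion selectivity of the kidney collecting duct, and CLDN12 is an atypical member without the usual PDZ-binding end.

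The members share a signature in the first extracellular loop, a glycine-leucine-tryptophan triplet followed by a pair of cysteines. The coding bases around it are shown because they tell the members apart and show how close CLDN3 and CLDN4 are, which bears on whether reads can be assigned to them. Capitals mark the codons of that triplet and of both cysteines, and the sequences are from GENCODE 29 transcripts on GRCh38, read 5′ to 3′ on the coding strand.
CLDN8: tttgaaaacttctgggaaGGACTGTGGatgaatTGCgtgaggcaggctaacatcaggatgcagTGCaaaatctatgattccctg
CLDN3: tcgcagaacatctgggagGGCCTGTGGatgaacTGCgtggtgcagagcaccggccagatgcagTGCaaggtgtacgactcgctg
CLDN4: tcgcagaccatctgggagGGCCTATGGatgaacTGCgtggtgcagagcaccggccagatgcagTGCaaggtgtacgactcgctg
CLDN1: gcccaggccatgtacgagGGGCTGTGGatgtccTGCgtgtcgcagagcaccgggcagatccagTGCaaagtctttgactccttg
CLDN7: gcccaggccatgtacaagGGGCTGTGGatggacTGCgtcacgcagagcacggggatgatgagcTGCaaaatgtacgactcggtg
CLDN12: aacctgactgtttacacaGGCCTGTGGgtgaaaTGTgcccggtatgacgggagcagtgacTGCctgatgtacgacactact
The CLDN8 stretch lies at chr21:30215716-30215799 on the minus strand, within the coding part of the gene's 1 annotated exon. Those of CLDN3 (chr7:73769843-73769926, minus strand, its 1 exon) and CLDN4 (chr7:73831328-73831411, plus strand, exon 2) lie in genes close together on chromosome 7. CLDN1 (chr3:190321997-190322080, minus strand) and CLDN7 (chr17:7261834-7261917, minus strand) carry theirs in exon 1, and CLDN12 (chr7:90412815-90412895, plus strand) in exon 3. CLDN3 and CLDN4 matched at 82 of the 84 bases, whereas CLDN8 matched CLDN3 at 60, CLDN4 at 58, CLDN1 at 52 and CLDN7 at 49. CLDN12 has 8 codons between the cysteines where the other 5 have 9. Over aligned coding bases CLDN8 was 61.5% identical to CLDN3 and 55.2% identical to CLDN12, while CLDN3 and CLDN4 were 79.6% identical. Every deposited count of CLDN1, CLDN3, CLDN4 and CLDN8 was a whole number, while CLDN7 and CLDN12 had fractional counts in some libraries. The exons of CLDN7 overlap AC003688.1 on the same strand over 10.8% of their bases. Those of CLDN12 overlap AC006153.1 (5.5%), GTPBP10 (5.15%), AC002456.2 (4.09%) and CDK14 (2.98%) on the same strand. Whether these overlaps gave the fractional counts was not tested.

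The libraries held between 9846595 and 33809419 counts, and all but 1, the third vehicle library at 24 h, held at most 15248512. The study describes its replicates as biological without saying how the cultures were kept apart, and p-values measure the spread between these libraries. Luminal prostate markers were abundant (KRT8, a keratin of luminal cells, 449 to 1004 CPM, counts scaled to library size, and EPCAM 161 to 230 CPM), while KLK3, a secreted protease of luminal cells, ranged from 0.687 to 146 CPM with a median of 15.2. The 7 luminal genes examined summed to 3931 to 4053 CPM with vehicle, 3420 to 3483 with Senexin B, 3392 to 3439 with R1881 and 2909 to 2976 with both at 24 h. At 72 h the sums were 3324 to 3378, 2988 to 3081 with SNX631, 3418 to 3457 with R1881 and 2974 to 3051 with both, so they were lower with inhibitor in both experiments. The 3 basal genes (KRT5, KRT14 and TP63) summed to at most 0.449 CPM, from KRT14 in R1881 libraries, and the leukocyte gene PTPRC reached at most 0.283 CPM. The 3 endothelial genes were higher in sum with R1881, at 2.52 to 2.98 CPM against at most 1.23 with vehicle at 24 h and 3.27 to 4.54 against at most 1.28 at 72 h, nearly all from VWF, with PECAM1 and CDH5 at or near 0. With Senexin B the endothelial sum was 0.334 to 0.766 CPM without and 1.03 to 2.62 with R1881. With SNX631 it was 0.333 to 1.25 CPM without and 2.58 to 3.24 with R1881. The 3 neuroendocrine genes summed to 0.167 to 1.16 CPM, mostly from SYP. The fibroblast list of 4 genes summed to 26.5 to 29.4 CPM with vehicle and 15.3 to 16.8 CPM with R1881 at 24 h, nearly all from COL1A1 and COL3A1, with PDGFRA and DCN at or near 0. It summed to 31.9 to 34.7 CPM with vehicle and 17.8 to 25.2 with R1881 at 72 h. With Senexin B the fibroblast sum was 20.9 to 22.7 CPM without and 9.60 to 11.2 with R1881. With SNX631 it was 29.5 to 32.0 CPM without and 13.1 to 15.8 with R1881. The part of these lists in the results below was not tested.

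CLDN8 was a minor claudin by level. Scaled per kilobase of exon, its level ranged from 0.555 to 7.18 CPM per kb over the 28 libraries, against 40.3 to 81.8 for CLDN3, 44.2 to 68.0 for CLDN7, 21.4 to 36.4 for CLDN4 and 12.5 to 36.5 for CLDN12. CLDN3 and CLDN7 overlapped in level, as did CLDN4 and CLDN12, and CLDN8 stayed below all of them in every library. Among claudins outside the 6, CLDN23 had a mean level of 4.13 CPM per kb and CLDN15 of 1.73, around the 2.14 of CLDN8, and no other claudin row passed the filter. Neither was called in any of the 10 contrasts, with log2 changes between -0.34 and 0.11 and the lowest FDR, 0.0265, for CLDN15 with R1881 and SNX631 against SNX631. CLDN1 was at the detection limit, with 0 to 10 counts per library and no more than 0.182 CPM per kb. The order of CLDN4 and CLDN12 depended on the gene length used, since with the longest transcript in place of all exons CLDN12 (median 38.0 CPM per kb) exceeded CLDN4 (32.2).

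**Figure D1:**
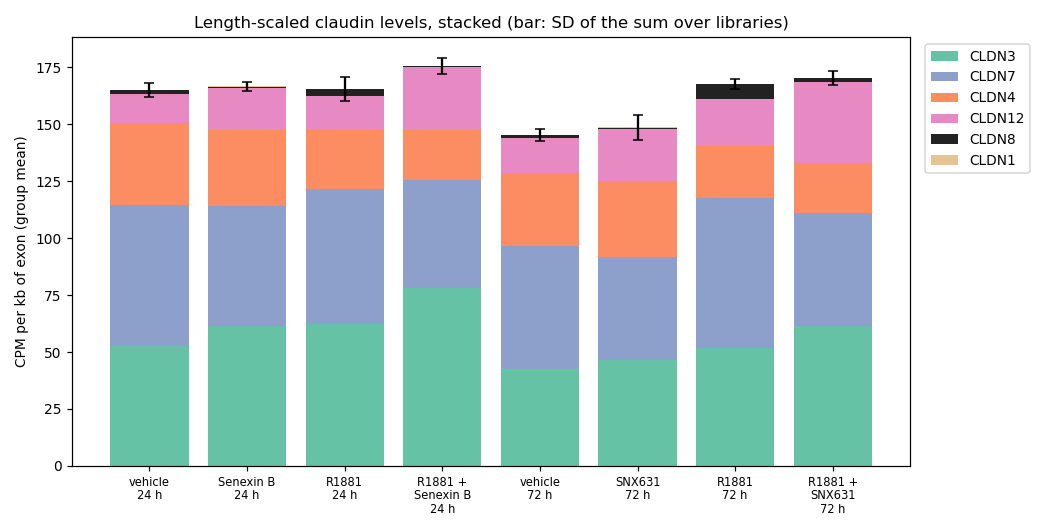
Stacked group means of claudin level in CPM per kilobase of exon, for vehicle, inhibitor, R1881 and the combination at 24 h (3 libraries each) and 72 h (4 libraries each), with the SD of the summed level. CLDN3 and CLDN7 make up most of each bar, CLDN12 widens under the inhibitors, and CLDN8 is the thin black layer that reaches 6.50 CPM per kb with R1881 at 72 h.

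The summed level of the 6 genes had group means between 145 and 176 CPM per kb, while its makeup changed. It was 165 ± 3.04 CPM per kb (SD, n = 3) with vehicle, 167 ± 1.99 with Senexin B, 165 ± 5.38 with R1881 and 176 ± 3.54 with both at 24 h. At 72 h it was 145 ± 2.72 (SD, n = 4) with vehicle, 149 ± 5.38 with SNX631, 168 ± 2.27 with R1881 and 170 ± 3.14 with both. CLDN8 supplied 1.05% ± 0.071 of this sum with vehicle at 24 h and 3.88% ± 0.392 with R1881 at 72 h, its highest group, and 0.353% ± 0.032 with Senexin B alone, its lowest. CLDN12 supplied 7.74% ± 0.234 with vehicle at 24 h and 20.9% ± 0.369 with R1881 and SNX631 at 72 h. The share of CLDN4 was 22.0% ± 0.858 with vehicle and 13.8% ± 0.253 with R1881 at 72 h. These sums and shares use the length of all exons, and the shares depend on that choice. With the longest transcript in its place, CLDN12 supplied 12.1% with vehicle at 24 h and 30.6% with R1881 and SNX631 at 72 h. In the latter group CLDN7 then supplied 29.2% and CLDN3 28.1%. The shares were not tested.

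CLDN8 rose with androgen in both experiments. With vehicle the 3 libraries at 24 h had 3.30, 3.61 and 3.81 CPM, and with R1881 they had 7.27, 6.65 and 6.13. The groups did not overlap, and the fitted change was 0.88 ± 0.14 (log2, SE), a 1.84-fold rise (edgeR quasi-likelihood test, FDR 2.07e-06). At 72 h the vehicle libraries had 2.39, 2.71, 2.92 and 2.44 CPM and the R1881 libraries 14.8, 13.9, 11.9 and 13.1. Again every R1881 library lay above every vehicle library, by a log2 change of 2.34 ± 0.14 or 5.05-fold (FDR 8.64e-19). The increase was larger in the 72 h experiment by 1.46 ± 0.19 on the log2 scale in a fit of all 28 libraries (FDR 7.88e-08, one of 1.88% of 16672 genes called for such a difference). The vehicle and R1881 libraries were also the baselines of the contrasts on which CLDN8 was selected, so these FDRs are not independent of that selection. Behind these values stood 35 to 130 counts per library with vehicle and 70 to 78 with R1881 at 24 h, and 28 to 36 and 135 to 168 at 72 h.

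A call here means an FDR under 0.01 together with a change over 1.5-fold, the limits used in the study. R1881 without inhibitor gave such calls for 19.0% of 15948 genes at 24 h and 19.8% of 16074 at 72 h, in either direction. Of the 5 claudins tested 1 was called in each experiment, CLDN8 both times. These libraries were the baselines of the contrasts that selected CLDN8, so the count and the median of the 5 are not independent of that selection. CLDN8 ranked 1051st from the top at 24 h and 195th at 72 h. The median log2 change of the 5 was 0.16 at 24 h and 0.28 at 72 h, beside -0.02 and -0.01 over all genes tested.

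**Figure D2:**
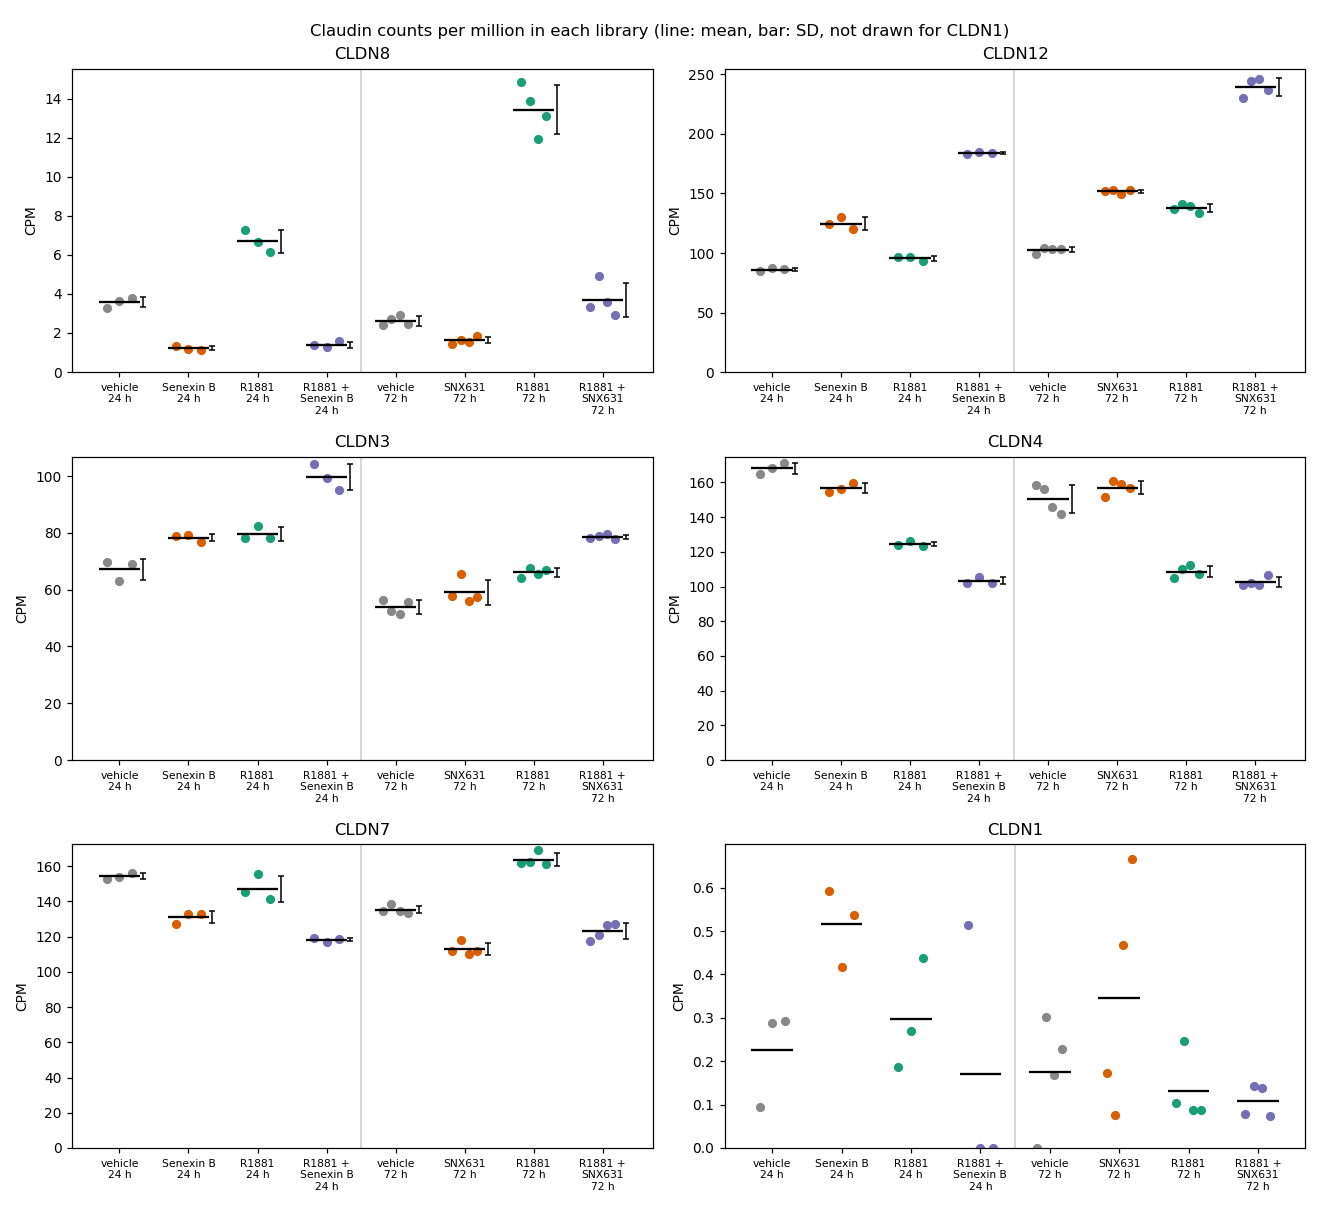
CPM of each claudin in each library, by treatment group, at 24 h (left of the grey line) and 72 h (right), with the group mean as a line and the SD as a bar (none for CLDN1). CLDN8 is highest with R1881 alone, up to 14.8 CPM at 72 h, CLDN12 is highest with R1881 and inhibitor together, up to 246 CPM, and CLDN1 stays under 0.7 CPM.

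Without inhibitor the other claudins moved less with androgen, and not in one direction. CLDN4 was lower in every R1881 library. It had 165, 169 and 171 CPM with vehicle and 124, 126 and 124 with R1881 at 24 h, a log2 difference of -0.43 ± 0.03 (FDR 1.49e-12). At 72 h it had 159, 156, 146 and 142 CPM with vehicle and 105, 110, 112 and 107 with R1881, a difference of -0.48 ± 0.03 (FDR 2.94e-15). Both values passed the FDR limit and stayed under the 1.5-fold limit. CLDN3, whose gene lies near CLDN4 on chromosome 7, was higher with R1881 in every library. It had 69.6, 62.9 and 68.9 CPM with vehicle and 78.1, 82.4 and 78.1 with R1881 at 24 h, and 56.5, 52.6, 51.4 and 55.7 against 64.2, 67.7, 65.6 and 66.7 at 72 h. Its log2 difference was 0.25 ± 0.05 at 24 h (FDR 2.88e-05) and 0.28 ± 0.04 at 72 h (FDR 1.17e-06). CLDN12 was higher by 0.16 ± 0.04 (FDR 0.00115) and 0.41 ± 0.03 (FDR 1.73e-14), from 84.6, 87.4 and 86.2 CPM to 96.5, 96.7 and 93.2 at 24 h.

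CLDN7 passed the FDR limit for androgen at 72 h and not at 24 h. At 24 h it had 153, 154 and 156 CPM with vehicle and 145, 155 and 141 with R1881, groups that overlapped, with a log2 difference of -0.06 ± 0.04 (FDR 0.137). At 72 h it had 135, 139, 134 and 134 CPM with vehicle and 162, 162, 169 and 161 with R1881, a difference of 0.26 ± 0.03 (FDR 1.39e-09). The 72 h effect exceeded the 24 h effect by 0.33 ± 0.05 (FDR 6.39e-07), also under the fold limit. CLDN12 differed between the experiments by 0.25 ± 0.05 (FDR 1.15e-04), whereas for CLDN3 the difference was 0.03 ± 0.06 (FDR 0.834) and for CLDN4 -0.05 ± 0.05 (FDR 0.555).

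The inhibitor contrasts are those on which CLDN8 was selected, so its values here are descriptive. Senexin B alone left 1.33, 1.17 and 1.15 CPM of CLDN8, below all 3 vehicle libraries, a log2 difference of -1.55 ± 0.22. SNX631 alone left 1.46, 1.67, 1.56 and 1.83 CPM, a difference of -0.68 ± 0.20 from vehicle. In the presence of R1881, Senexin B brought CLDN8 to 1.37, 1.26 and 1.58 CPM, a difference of -2.23 ± 0.21 or 4.68-fold, the 8th lowest of 15948 genes. SNX631 with R1881 left 3.32, 4.94, 3.58 and 2.94 CPM, a difference of -1.86 ± 0.12 or 3.64-fold, the 21st lowest of 16074. These low groups rest on 13 to 22 counts per library without R1881 or with Senexin B, and on 40 to 69 with R1881 and SNX631.

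CLDN12 moved the other way. Senexin B took it from 84.6, 87.4 and 86.2 CPM to 124, 130 and 120, a log2 difference of 0.56 ± 0.04 (FDR 2.84e-13), and SNX631 from 99.5, 104, 104 and 104 to 152, 153, 150 and 153, a difference of 0.56 ± 0.03 (FDR 5.79e-18). Both were just under the fold limit. With R1881 present CLDN12 rose past it, to 183, 185 and 184 CPM with Senexin B (0.95 ± 0.04, 1.94-fold, FDR 1.03e-18) and to 230, 245, 246 and 237 CPM with SNX631 (0.78 ± 0.03, 1.72-fold, FDR 1.92e-23). No inhibitor library of CLDN12 overlapped the matched library group without inhibitor. CLDN12 ranked 163rd highest at 24 h and 207th highest at 72 h in these contrasts.

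CLDN3, CLDN4 and CLDN7 showed smaller inhibitor differences. CLDN7 was lower in each of the 4 contrasts, by -0.22 ± 0.04 (FDR 1.55e-05) with Senexin B and -0.26 ± 0.03 (FDR 9.66e-09) with SNX631 in the absence of R1881, and by -0.31 ± 0.04 (FDR 2.02e-07) and -0.42 ± 0.03 (FDR 1.79e-14) in its presence. With inhibitor and R1881 together CLDN7 had 119, 117 and 119 CPM at 24 h and 118, 121, 127 and 127 at 72 h, all below the libraries with R1881 alone. CLDN3 was higher with Senexin B, reaching 104, 99.4 and 95.2 CPM together with R1881, by 0.24 ± 0.05 (FDR 8.70e-05) without and 0.33 ± 0.05 (FDR 1.55e-06) with R1881. With SNX631 its differences were 0.13 ± 0.04 (FDR 0.0176, groups overlapping) and 0.23 ± 0.04 (FDR 1.05e-05). CLDN4 differed by -0.08 ± 0.03 (FDR 0.0508) with Senexin B and 0.06 ± 0.03 (FDR 0.133) with SNX631, and with R1881 present by -0.27 ± 0.04 (FDR 1.42e-06) and -0.10 ± 0.04 (FDR 0.0282). None of these passed the fold limit.

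**Figure D3:**
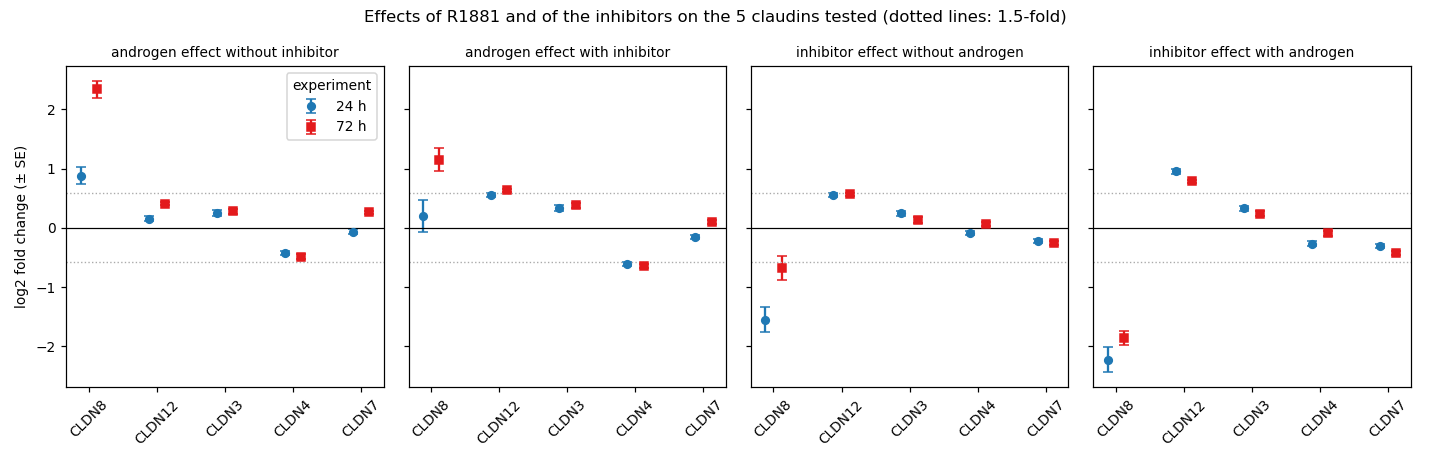
Log2 fold changes with their SE for the 5 claudins tested, for R1881 without and with inhibitor and for the inhibitor without and with R1881, at 24 h (circles) and 72 h (squares). CLDN8 reaches 2.34 with R1881 at 72 h and -2.23 with Senexin B on top of R1881, CLDN12 lies above 0 in every panel, and CLDN4 lies just past the lower dotted 1.5-fold line with R1881 and inhibitor, at -0.61 and -0.64.

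Over all genes, the inhibitor without R1881 gave calls for 3.79% at 24 h and 4.77% at 72 h, and with R1881 for 3.12% and 4.12%. CLDN8 was selected on these contrasts and is left out of the count. Of the 4 other claudins tested, 0 were called without R1881 in either experiment by edgeR or DESeq2 (at an unadjusted p under 0.05, 2 were higher and 2 lower at 24 h, and 2 higher and 1 lower at 72 h, by edgeR, and 2 higher and 1 lower in both by DESeq2). With R1881 1 of the 4 was called in both experiments, CLDN12, higher. Senexin B and SNX631 were used at different doses and times, so their values are set side by side and not compared.

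The fitted androgen effect on CLDN8 was smaller with an inhibitor present, which is given without a test. At 24 h the Senexin B libraries without and with R1881 overlapped in CPM, and the log2 change was 0.20 ± 0.27 with a 95% interval of -0.32 to 0.73. At 72 h, in the presence of SNX631, the change was 1.15 ± 0.19 or 2.22-fold. The difference between the androgen effect with and without inhibitor, the interaction, was -0.68 ± 0.30 at 24 h and -1.18 ± 0.24 at 72 h. It is built from the inhibitor contrasts that selected CLDN8 and is left untested here. CLDN12 had an interaction of the opposite sign, 0.40 ± 0.05 (FDR 7.53e-06) and 0.22 ± 0.04 (FDR 1.38e-04), under the fold limit.

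With inhibitor present, R1881 moved CLDN4 and, at 72 h, CLDN12 past the fold limit. CLDN4 fell by 0.61 ± 0.04 on the log2 scale at 24 h (FDR 6.19e-16), to 102, 106 and 102 CPM, and by 0.64 ± 0.03 at 72 h (FDR 2.23e-19), to 101, 102, 101 and 107 CPM. CLDN12 was higher by 0.55 ± 0.04 at 24 h (FDR 9.57e-15, under the limit) and rose by 0.63 ± 0.03 at 72 h (FDR 3.34e-22), a value that with scaling to library totals alone was 0.52, under the fold limit. CLDN3 was higher by 0.34 ± 0.05 (FDR 1.55e-07) and 0.38 ± 0.04 (FDR 2.03e-10). CLDN7 differed by -0.15 ± 0.04 at 24 h (FDR 0.00106) and 0.10 ± 0.03 at 72 h (FDR 0.00659), and with that same scaling the latter was -0.01 (FDR 0.750). The background was 18.9% of genes called at 24 h and 22.0% at 72 h, against 1 of the 4 claudins other than CLDN8 (CLDN4) and 2 of the 4 (CLDN4 and CLDN12). For the interaction the background was 0.577% and 1.19%, with 0 of these 4 called in either experiment by edgeR or DESeq2 (at an unadjusted p under 0.05 both tools had 1 above and 1 below 0 at 24 h, and 1 above and 2 below 0 at 72 h). For CLDN4, at -0.16 ± 0.05, and CLDN7, at -0.16 ± 0.04, the 72 h interaction had an FDR of 0.0243 and 0.00860.

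Set against its family within the same library, CLDN8 gained on each of the 4 other members that passed the filter when androgen was added alone. The log2 ratio of CLDN8 to CLDN4 averaged -5.50 with vehicle and -4.19 with R1881 at 24 h, and -5.77 and -3.004 at 72 h. Averaged over both experiments the ratio to CLDN4 rose by 2.03, the ratio to CLDN7 by 1.48, that to CLDN3 by 1.32 and that to CLDN12 by 1.30. Each had p = 0.00143 in an exact two-sided permutation test of 14 libraries with labels exchanged within experiments, the smallest p that 1400 arrangements can give, and 0.00238 after adjustment over the 10 ratios tested (Benjamini-Hochberg). With inhibitor present the mean shifts were 1.24 against CLDN4, 0.65 against CLDN7, 0.26 against CLDN3 and 0.03 against CLDN12, the last from -0.38 at 24 h and 0.43 at 72 h. The ratios with inhibitor are among the 10 over which the adjustment was made, so the adjusted values depend in part on them. No p is given for them, since CLDN8 was selected on the libraries with inhibitor. The vehicle and R1881 libraries were the baselines of that selection, so p-values of ratios without inhibitor are not independent of it. All the ratios share CLDN8 as numerator and are not separate evidence. The ratio to CLDN1 rose by 1.52 without inhibitor (exact permutation p = 0.00286, adjusted 0.00357) and has a denominator at the detection limit.

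**Figure D4:**
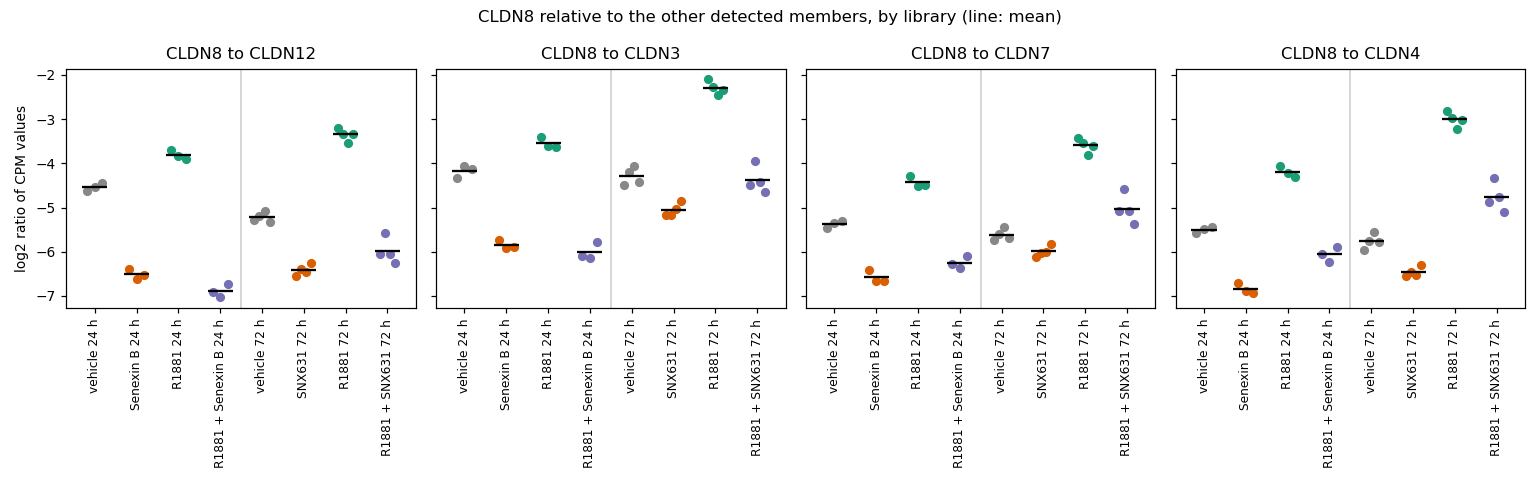
Log2 ratio of CLDN8 to CLDN12, CLDN3, CLDN7 and CLDN4 CPM in each library, by treatment group, with group means as lines. In each panel the libraries with R1881 alone lie highest within their experiment, with a mean of -3.35 for the ratio to CLDN12 at 72 h, and the groups with Senexin B or SNX631 alone lie below vehicle.

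CLDN1 gave 1, 4 and 10 counts in the vehicle libraries at 24 h, the last from the library with the most counts, and 8, 5 and 7 with Senexin B. With R1881 it gave 2, 3 and 5 counts, and with both 6, 0 and 0. At 72 h it gave 0, 4, 2 and 3 counts with vehicle, 2, 1, 6 and 8 with SNX631, 1, 3, 1 and 1 with R1881, and 1, 2, 2 and 1 with both. A count of 0 allows up to 3 counts, or between 0.0878 and 0.309 CPM depending on the library, for counting error only. The Senexin B libraries, at 0.418 to 0.592 CPM, did not overlap the vehicle libraries at 24 h, at 0.0943 to 0.293. In a fit without the filter that difference had an FDR of 0.250 (edgeR, unadjusted p = 0.0647), and the FDR over all CLDN1 contrasts ranged from 0.0609 (R1881 with SNX631 present) upward. None passed the limit, at a depth of at most 10 counts.

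Over the 28 libraries, with each experiment centred on its own mean, the pattern of CLDN8 was closest to that of CLDN7 among the members (Pearson r = 0.849, Spearman's rank coefficient 0.820). Its r with CLDN3 was 0.03, with CLDN12 -0.28 and with CLDN4 -0.40. CLDN3 went with CLDN12 (r = 0.891) and against CLDN4 (r = -0.863). Among 14899 genes with at least 1 CPM the 5 most like CLDN8 by r were GLUL (0.964), glutamine synthetase, VCP (0.953), an ATPase of protein quality control, NAT1 (0.952), an arylamine acetyltransferase, AP1G1 (0.951), a clathrin adaptor subunit, and HMGN5 (0.948), a nucleosome-binding protein. By Spearman's rank coefficient these 5 ranked 31.5, 10, 7, 20 and 26.5, so which genes came nearest depended on the measure. GLUL averaged 294 CPM with vehicle, 323 with R1881 and 251 with R1881 and Senexin B at 24 h. It averaged 295, 403 and 295 CPM in the matching groups at 72 h. The closest gene to CLDN12 was FNDC10 (0.973), to CLDN3 AFG3L2 (0.972), to CLDN4 PLCB4 (0.981) and to CLDN7 CTBP2 (0.936). The libraries share their treatments and depth, and the correlations are descriptions.

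RefSeq promoter windows were held for 5 of the 6 genes, CLDN8 being the one without an entry. The 250 bases before the start of CLDN3 and CLDN12, which were higher with R1881 and with inhibitor, and of CLDN4, which was lower with R1881, are shown for comparison (GRCh38.p14, chr7:73770271-73770520 on the minus strand, chr7:90403211-90403460 and chr7:73830746-73830995 on the plus strand). Capitals mark matches to the GC box GGGCGG on either strand.
CLDN3: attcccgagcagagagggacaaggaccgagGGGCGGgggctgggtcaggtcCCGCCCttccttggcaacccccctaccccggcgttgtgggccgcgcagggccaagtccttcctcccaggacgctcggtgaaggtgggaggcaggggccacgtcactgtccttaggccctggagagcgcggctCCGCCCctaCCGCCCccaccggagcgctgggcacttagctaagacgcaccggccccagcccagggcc
CLDN12: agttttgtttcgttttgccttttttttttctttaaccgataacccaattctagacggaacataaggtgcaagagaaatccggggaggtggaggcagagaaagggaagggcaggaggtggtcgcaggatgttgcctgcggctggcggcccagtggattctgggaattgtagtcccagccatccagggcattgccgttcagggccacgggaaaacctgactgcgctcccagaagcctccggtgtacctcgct
CLDN4: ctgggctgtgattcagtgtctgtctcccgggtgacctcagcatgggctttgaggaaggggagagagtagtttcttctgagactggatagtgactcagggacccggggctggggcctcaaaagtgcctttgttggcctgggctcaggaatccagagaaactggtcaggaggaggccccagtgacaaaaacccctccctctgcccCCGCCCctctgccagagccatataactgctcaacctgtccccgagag
CLDN3 held 4 GC boxes, CLDN4 held 1 and CLDN12 none, and 42.6% of 35116 promoter windows of this length held at least 1. The E-box CACCTG, searched on both strands, was found 4 times in a second CLDN7 window, in no other member's window, and in 17.5% of all windows. The androgen receptor half-site AGAACA, searched likewise, was in no member's window and in 12.4% of all windows. The TATA box TATAAA was also in no member's window, and in 10.7% of all windows. Such matches describe these letters in this window only.

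Among the other tight junction genes, every call with androgen was lower. Of 47 other genes of the junction, from strand proteins to scaffolds and signalling proteins, 39 were tested. Androgen without inhibitor called 0 of them higher and 6 lower at 24 h, and 0 higher and 5 lower at 72 h, with a median log2 change of -0.12 and -0.04. The background at 24 h was 9.81% of all genes higher and 9.19% lower, and at 72 h it was 9.70% and 10.1%. DESeq2 also called 0 higher, and at an unadjusted p under 0.05 edgeR had 11 higher at 24 h and 14 at 72 h, and DESeq2 10 and 13. Lower in both experiments were OCLN (occludin, a strand protein), JAM3 (a junctional adhesion molecule), MAGI3 (a scaffold) and ARHGEF2 (a guanine nucleotide exchange factor). OCLN fell by 1.11 ± 0.06 at 24 h (FDR 4.73e-18) and by 1.31 ± 0.05 at 72 h (FDR 1.34e-23). JAM3 fell by 0.87 ± 0.21 (FDR 4.97e-04) and by 1.41 ± 0.19 (FDR 1.66e-08). With inhibitor, R1881 called 7 lower at 24 h and 6 lower at 72 h, beside 8.90% and 12.0% of all genes. It called none higher by edgeR or DESeq2, beside 9.97% and 10.1% of all genes (11 and 10 at an unadjusted p under 0.05 by edgeR, 9 in both by DESeq2).

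With the inhibitors, the calls in this list stood beside 3.79% of all genes at 24 h and 4.77% at 72 h without R1881, and 3.12% and 4.12% with R1881. Without R1881, 0 of 39 were called with Senexin B by edgeR or DESeq2 (3 higher and 16 lower at an unadjusted p under 0.05 by edgeR, 2 and 13 by DESeq2) and 1, CGNL1, a junctional adaptor, was lower with SNX631. With R1881, 3 were lower at 24 h (TJP3, CGNL1 and BVES), and 4 were lower (TJP3, CGNL1, AMOTL2 and BVES) and 1 higher at 72 h. The higher gene was OCLN, by 0.66 ± 0.05 (FDR 7.75e-13). No gene of the list was called the same way in all 4 inhibitor contrasts, and no interaction was called in either experiment by edgeR or DESeq2, with 6 above and 5 below 0 at an unadjusted p under 0.05 at 24 h and 4 and 6 at 72 h by edgeR, and 4 and 4, and 4 and 5, by DESeq2. OCLN was named by its calls with androgen, and the other genes named in this paragraph were picked after their values were seen. The R1881 libraries at 72 h, the baseline of the OCLN rise, were among those that named it. Its FDR here is therefore not independent of that choice.

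**Figure D5:**
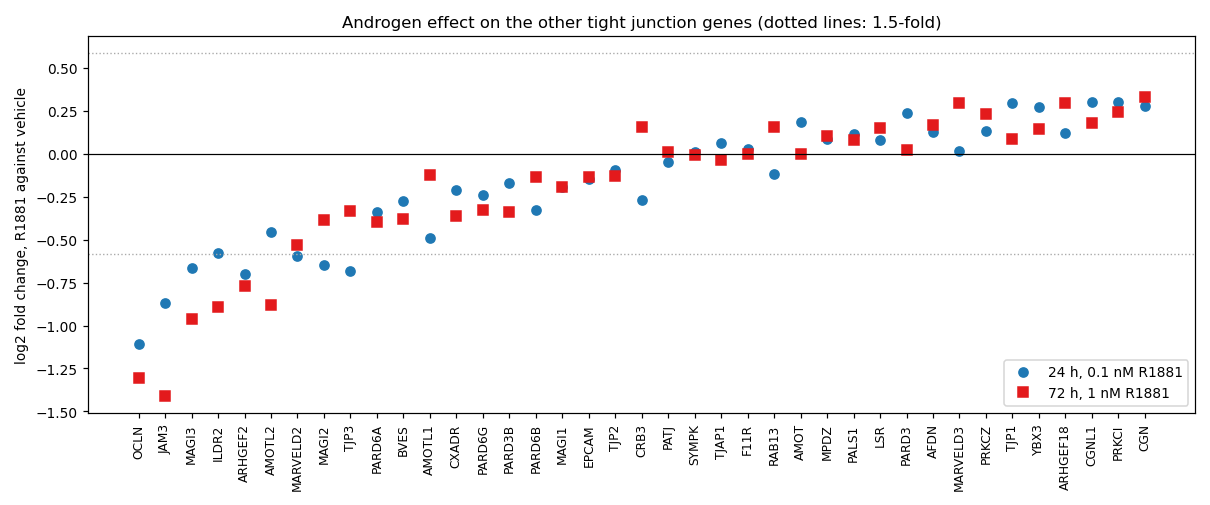
Log2 fold change with R1881 against vehicle for the 39 tested tight junction genes other than claudins, ordered by their mean, at 24 h with 0.1 nM (circles) and 72 h with 1 nM (squares). OCLN and JAM3 lie lowest, at -1.31 and -1.41 at 72 h, and no gene lies above the upper 1.5-fold line.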

How the data were processed

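RNA was sequenced from 28 LNCaP libraries (8 groups, 3 or 4 each). The submitters' processing notes name cutadapt 2.8, STAR 2.7.2b, featureCounts of Subread 2.0.3 and builds GRCh38.p13 and GRCm39. The authors deposited estimated counts per gene with fractional values (16.9% of values above 0). The strand setting and annotation release are not given in the sources used here.

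Counts were rounded, TMM-scaled and tested with edgeR 4.0.16 (quasi-likelihood, filterByExpr with minimum count 10 and minimum total 15, Benjamini-Hochberg over all genes tested), separately for the 24 h (15948 genes) and 72 h (16074) libraries. A call needed FDR under 0.01 and over 1.5-fold. CPM used the same scaling over all libraries, and ratios used log2 CPM with a prior count of 2. Exon lengths and coding sequences came from GENCODE 29. DESeq2 1.42.0, other scalings and filters, and leaving out each library were alternatives. The fits were tested on simulated data. Members and lists were chosen with earlier results of these data known. Named genes were the members, other claudins tested, tight junction genes called alike in both experiments, and the nearest genes by correlation.

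Replicate libraries differed by more than sampling noise (36 pairs, chi-square per degree of freedom 1.2 to 2.48).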

Additional observations from a re-analysis of the deposited data

Results flagged for a closer look

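CLDN8 differed between the experiments in its androgen effect without inhibitor, by 1.46 ± 0.19 (log2, SE, 72 h minus 24 h, edgeR FDR 7.88e-08), with R1881 above vehicle in every library of both. Those libraries were the baselines of the contrasts that selected CLDN8, so its FDR is not independent of the selection. CLDN7 differed by 0.33 ± 0.05 without inhibitor (FDR 6.39e-07) and by 0.26 ± 0.05 with inhibitor (FDR 7.51e-05), and CLDN12 by 0.25 ± 0.05 without inhibitor (FDR 1.15e-04). Time, R1881 dose and, where present, the inhibitor changed together between the experiments and cannot be told apart in these differences.

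In 3 of 24 combinations of 6 genes with 4 groups of 4 libraries at 72 h, which share their libraries, 1 library stood apart from the others, where chance gives about 1 in 20. In the R1881 group at 72 h the gap of the farthest library, divided by the range, was 0.878 for CLDN7 (169 CPM against 161 to 162) and 0.899 for CLDN1 (3 counts against 1). In the vehicle group at 72 h it was 0.921 for CLDN12 (99.5 CPM against 104).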

How the results depend on the processing

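The androgen effects of CLDN8 kept their direction under every alternative run, and without inhibitor also their side of the limits. Without 1 library at a time its log2 change without inhibitor was 0.82 to 0.94 in the 24 h and 2.29 to 2.39 in the 72 h experiment, and with inhibitor 0.10 to 0.28 and 0.98 to 1.25. With a replicate block the changes were 0.87 and 2.34 without and 0.20 and 1.15 with inhibitor, and the block changed no claudin call. Same-numbered libraries did not deviate together (r between -0.0127 and 0.0913 in the first experiment, and between -0.0576 and 0.0813 in the second), so the numbers were not taken as pairs.

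With FDR under 0.05 and no fold limit, 4, 4, 4, 5 and 2 of the 5 claudins were called at 24 h (androgen without and with inhibitor, inhibitor without and with androgen, interaction) and 5, 5, 4, 5 and 4 at 72 h, against 1, 1, 1, 2 and 0, and 1, 3, 1, 2 and 1. In the same order, FDR under 0.05 alone called 9307, 9157, 5717, 5257 and 719 of all 15948 genes tested at 24 h. At 72 h it called 9984, 10562, 5864, 6873 and 2034 of 16074. The 5 claudins include CLDN8, which was selected on the contrasts with inhibitor, whether or not it was called there. At 24 h the 4 called at this wider limit for androgen with inhibitor were CLDN3, CLDN4, CLDN7 and CLDN12. The 2 called for the 24 h interaction were CLDN4 and CLDN12. Scaling to library totals moved the median of all genes by -0.102 and -0.108 in the 72 h androgen contrasts and called 2 claudins for androgen without inhibitor, CLDN4 being added, and it called 2 tight junction genes for Senexin B alone. CLDN7 for androgen with SNX631 then reversed to -0.0118, and CLDN12 there (0.52) did not pass the fold limit. DESeq2 called 0 claudins for SNX631 without androgen, as did leaving out vehicle library 2 or 3 or SNX631 library 1, 2 or 3 (range 0 to 1). Without the third Senexin B library 2 were called for Senexin B alone (range 1 to 2). The ratio of CLDN8 to CLDN12 with inhibitor ranged from -0.0403 to 0.0717, turning negative without Senexin B library 2 (-0.00169), R1881 and Senexin B library 3 (-0.0128) or R1881 and SNX631 library 2. The cause was not tested. Of the 5 genes most like CLDN8, 0 were among the nearest 5 by Spearman's rank coefficient and 1 by the 8 group means. Depth limits CLDN8 in the inhibitor groups (13 to 22 counts, and 40 to 69 with R1881 and SNX631) and CLDN1 throughout.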
